A study of Mus musculus with 5 samples.

Results

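The Hedgehog pathway genes described here are Gli1, Gli2, Gli3, Ptch1, Smo, Hhip and Sufu, 7 of the 28001 features counted in each library. They were taken by name, as the core components of the pathway, and their unique molecular identifiers (UMIs, 1 per captured RNA molecule) were counted in all 5 single-cell libraries. Levels are given as CPM, the UMIs of a gene per 1000000 UMIs of all genes, summed over the cells of 1 class in 1 library.

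Hedgehog ligands bind the receptor Ptch1, which in their absence holds the membrane protein Smo inactive. Active Smo, which works at the primary cilium, releases the Gli transcription factors from the inhibitor Sufu, and Gli1, Ptch1 and Hhip are themselves classical target genes, so their RNA is commonly read as a measure of pathway output. In adult mesenchymal tissue the cells that respond to ligand include fibroblast-like progenitors. Smarcb1, which belongs to the SWI/SNF chromatin remodellers, is reported to restrain Gli1, and its loss to raise Gli1. Whether Gli1 was higher in the sarcoma cells that lacked Smarcb1 RNA is the question set to these data.

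The 4 sarcoma libraries held sorted tdTomato-labelled cells of epithelioid sarcomas from C57BL/6J mice of genotype Hic1CreERT2/CreERT2;Rosa26LSLtdTomato/LSLtdTomato;Smarcb1FL/FL, taken at endpoint from the shoulder (sarcoma 1), the head (sarcoma 2), the head/ear (sarcoma 3) and the hip (sarcoma 4). The muscle library held sorted tdTomato-labelled mesenchymal progenitors of resting hindlimb muscle from a C57BL/6J mouse of genotype Hic1CreERT2/CreERT2;Rosa26LSLtdTomato/+, with Smarcb1 not floxed. All animals carried a tamoxifen-activated Cre at both copies of Hic1, a gene of mesenchymal progenitors, so Cre acts only in cells that express Hic1, and all were given 2.5 mg tamoxifen in 100 µL sunflower oil on each of 5 days when 8 weeks old, then left for 10 days. Sarcoma and muscle thus differ in genotype, number of reporter copies, anatomical site and presence of a tumour all at once, and these cannot be told apart. Whether each sarcoma had its own animal is not stated in the labels, so a p-value here measures the spread among these libraries only, which may be technical.

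After filtering, 37519 of 39930 cells were kept, 7433, 8206, 6949 and 6824 in sarcomas 1 to 4 and 8107 in muscle, with a median of 20005 to 28657.5 UMIs per cell in the sarcomas and 7566 in muscle. No 2 libraries shared more than 22 barcodes. Sarcoma cells were cells of a sarcoma library with at least 2 UMIs of Gchfr and none of Smarcb1, 5182, 7447, 2914 and 3356 cells in sarcomas 1 to 4. Stroma was cells of a sarcoma library with at least 4 UMIs of Ddah1, Wisp1, C1qtnf7 and Fbn2 together, 224, 180, 1795 and 170 cells, of which 40, 24, 63 and 91 also met the sarcoma rule and were counted in both classes. Muscle progenitors were cells of the muscle library with at least 1 UMI of Pdgfra, 6117 cells. In the muscle library 1 cell had at least 2 UMIs of Gchfr, its Smarcb1 count not being examined, whereas 175 cells met the stroma rule.

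The class names were checked on Smarcb1, which the stroma rule did not use, and on sums of marker genes. Stroma held 33.3, 57.1 and 56.5 CPM of Smarcb1 in sarcomas 1 to 3 but 3.96 CPM in sarcoma 4, and muscle progenitors held 87.7 CPM. The summed level of 7 progenitor markers was 11798 to 24449 CPM in the stroma of sarcomas 1 to 3 and 1737 CPM in that of sarcoma 4, against 63049 CPM in muscle progenitors. Sarcoma cells of sarcomas 1 to 4 held 2324, 6493, 9258 and 1655 CPM of them, so in sarcoma 4 the 2 classes were close. The cells taken as stroma in sarcoma 4 therefore go against their name, and the differences of the 7 genes that involve stroma are given with and without that library. The sum of 3 sarcoma markers, Gchfr, Cdkn2a and Spp1, did not bear out the name stroma in any sarcoma. In stroma of sarcomas 1 to 4 it was 1584, 12199, 885 and 3637 CPM. Sarcoma cells held 1216, 1934, 861 and 1568 CPM. Gchfr by itself, which the sarcoma rule used, was lower in stroma than in sarcoma cells of every sarcoma. An alternative removed cells of both classes and cells with at least 4 UMIs of mural, endothelial, glial or haematopoietic markers. It left 2922, 4280, 1387 and 3202 sarcoma cells and 119, 92, 1138 and 71 stroma cells in sarcomas 1 to 4, and 5857 muscle progenitors. Sarcoma 4 also stood apart among the sarcoma cells: Hic1 was at 0.891 CPM there and at 24.8 to 28.5 CPM in sarcomas 1 to 3, and at least 1 Pdgfra UMI was found in 15.6% of its cells and in 82.6% to 94.7% of those of the others.

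In outline, Gli1 was not called different between any of the 3 classes, and its level varied more between sarcomas than between sarcoma cells and stroma of 1 sarcoma. Gli2 lay lower in sarcoma cells than in stroma of the same library in all 4 sarcomas, and of the alternatives run it passed the threshold only where sarcoma 4 was left out or DESeq2 was used in place of edgeR. Ptch1, Smo and Sufu differed between sarcoma cells and stroma by -0.10, 0.04 and -0.04 on the log2 scale. Hhip was scarce in every tumour class. Sarcoma 4 held the highest levels of Gli1, Ptch1 and Smo in both tumour classes, and its sarcoma cells held more of the ligand gene Dhh than those of the other sarcomas. In sarcoma cells, though not in stroma, tenocyte markers were also highest in sarcoma 4. In its sarcoma cells 3 such genes summed to 333 CPM, and in those of sarcomas 1 to 3 to 0.202, 1.18 and 77.6 CPM. They summed to 244 CPM in stroma of sarcoma 4, to 53.8, 96.1 and 381 CPM in that of sarcomas 1 to 3 and to 129 CPM in muscle progenitors. None of the 3 was at 0 in any class, and their part in these levels was not tested.

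**Figure D1:**
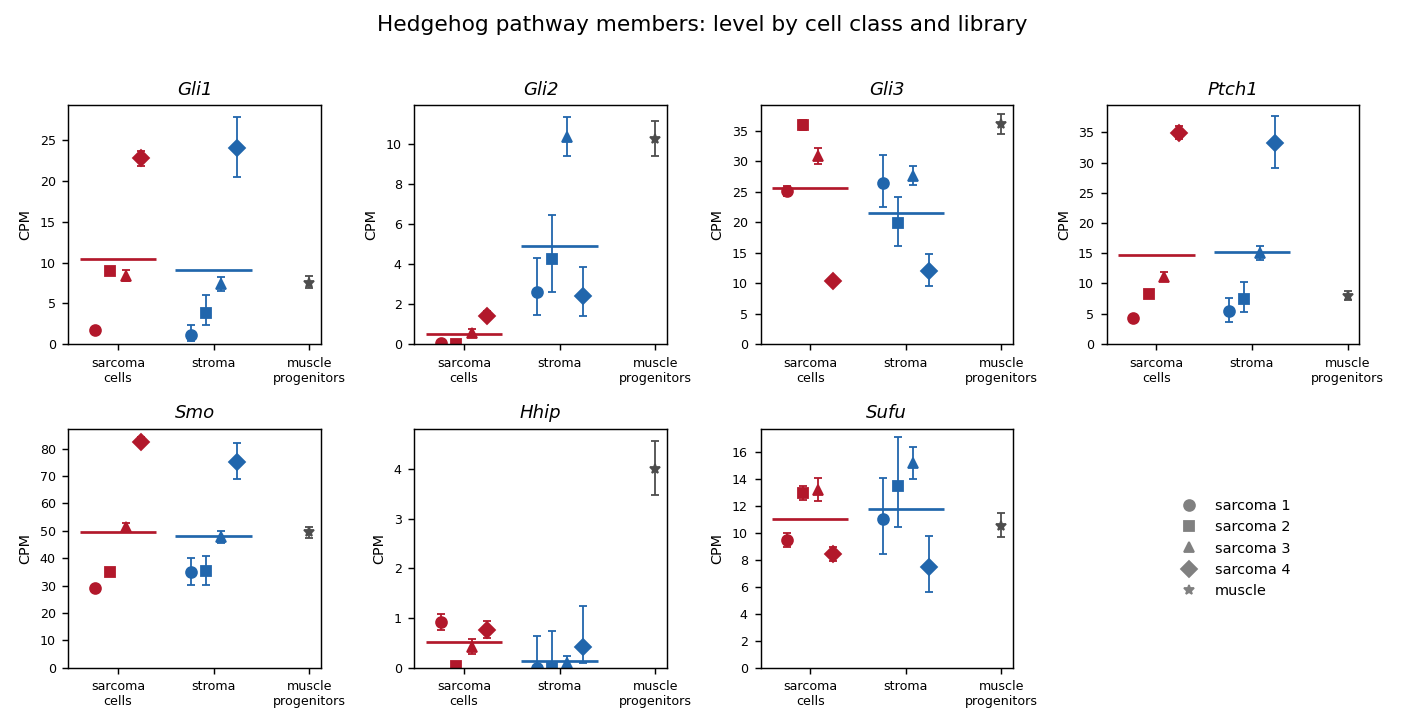
Level of each of the 7 genes in CPM (linear axes from 0, scaled separately) in sarcoma cells (red), stroma (blue) and muscle progenitors (grey), with 1 point per library, exact 95% Poisson intervals as bars and the mean of 4 libraries as a line. Gli1 reaches 22.8 CPM in the sarcoma cells of sarcoma 4 and 1.77 CPM in those of sarcoma 1, while Gli2 stays at or below 1.40 CPM in sarcoma cells and at 2.40 CPM or above in stroma and muscle progenitors.

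Gli1 (chromosome 10, 127329882 to 127341974, minus strand, mm10), the activator whose transcription Hedgehog signalling switches on, was found at 1.77, 8.94, 8.37 and 22.8 CPM in the sarcoma cells of sarcomas 1 to 4. In stroma of the same libraries it was at 1.05, 3.82, 7.34 and 24.0 CPM, from 6, 19, 311 and 170 UMIs. Muscle progenitors held 7.54 CPM (95% Poisson interval 6.82 to 8.32). Sarcoma 1 was the lowest and sarcoma 4 the highest in both tumour classes, and the ranges overlap. The mean was 10.5 ± 8.84 CPM in sarcoma cells and 9.06 ± 10.3 CPM in stroma (SD, n = 4 each). Intervals for counts and shares cover counting error only. In sarcomas 1, 3 and 4 the counting intervals of the sarcoma cells and the stroma overlap, and in sarcoma 2 the sarcoma cells (8.52 to 9.36 CPM) lay above the stroma (2.30 to 5.96 CPM).

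Paired by library, the log2 fold change of Gli1 in sarcoma cells over stroma was 0.51 ± 0.27 (SE, n = 4 libraries), with a 95% interval of -0.18 to 1.20 and an adjusted p of 0.277 by edgeR's quasi-likelihood test over all genes. Of the 16460 genes tested, 39 were called, which is 0.237%, with 6 higher and 33 lower in sarcoma cells. None of the 7 pathway genes was among them, although 2 of them, Gli2 and Hhip, had an unadjusted p under 0.05, as did 26.3% of all genes. DESeq2 called 1 of the 7, Gli2, and 16.5% of all genes, and limma-voom called 0 of the 7 and 4.06% of all genes. Without sarcoma 4 the Gli1 difference was 0.71 on the log2 scale (edgeR adjusted p = 0.228). Removing from the stroma every cell with a Gchfr UMI as well, an alternative chosen after seeing the data, also left Gli1 uncalled. In stroma without Gchfr UMIs, Gli1 lay at 1.28, 3.55, 7.29 and 26.6 CPM in sarcomas 1 to 4.

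Against muscle progenitors the Gli1 difference was 0.65 ± 1.35 on the log2 scale for sarcoma cells (n = 4 against 1, edgeR adjusted p = 0.854), with an interval of -2.86 to 4.15. Sarcoma 1 lay under muscle, sarcomas 2 and 3 close above it and sarcoma 4 well above it, and without sarcoma 4 the fold change was -0.15. Stroma differed from muscle progenitors by 0.29 ± 1.52 on the log2 scale (n = 4 against 1, edgeR adjusted p = 0.959), and by -0.80 without sarcoma 4. Both fits share the muscle sum. Here edgeR called 0 of 17667 genes (0.00%) for sarcoma cells and 0 of 13652 (0.00%) for stroma. At an unadjusted p under 0.05 the counts were 2221 (12.6%) and 1248 (9.14%), DESeq2 called 1796 (10.4%) and 700 (4.81%), and limma-voom called 47 (0.266%) and 0 (0.00%). The single muscle library is assumed in these fits to vary like the sarcomas, and an exact permutation test of 4 against 1 cannot go below p = 0.2, so a gene left uncalled here is not shown to be alike in tumour and muscle.

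**Figure D2:**
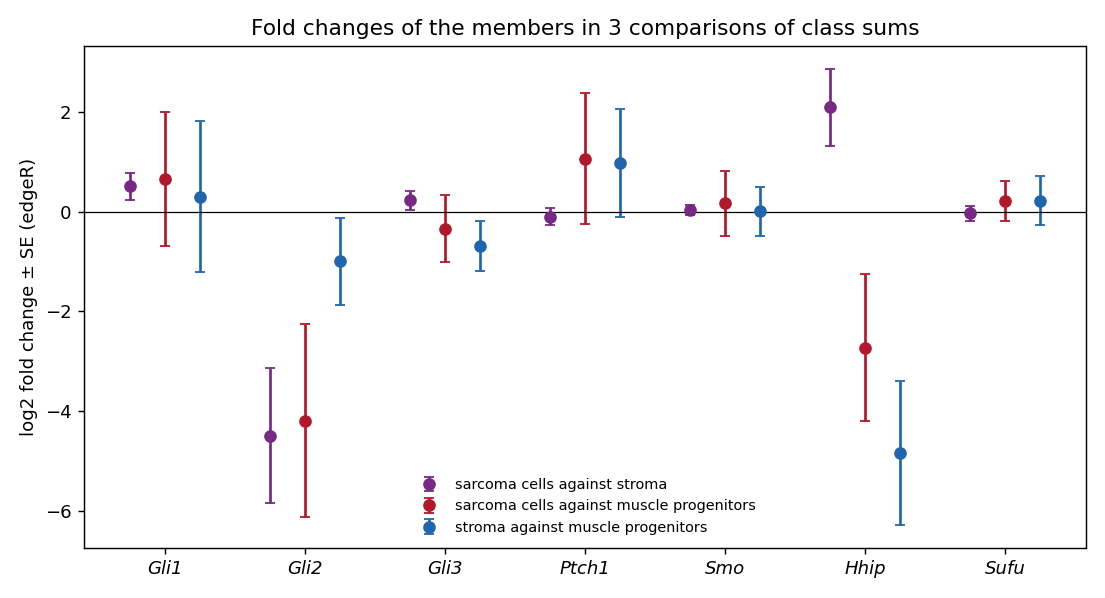
Log2 fold changes with standard errors of the 7 genes from edgeR, for sarcoma cells against stroma paired by library (purple), sarcoma cells against muscle progenitors (red) and stroma against muscle progenitors (blue). The bars of Gli1 against muscle span both signs, and Gli2 has values of -4.49 and -4.19 for sarcoma cells against stroma and against muscle progenitors.

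Counting cells in place of molecules gave a similar picture. With each cell thinned to 2000 UMIs, a Gli1 UMI was found in 0.407%, 1.74%, 1.72% and 4.70% of sarcoma cells in sarcomas 1 to 4. In stroma the shares were 0 of 223 cells, which allows up to 1.35%, 0 of 180 cells, which allows up to 1.67%, then 1.45% and 5.29%. Muscle progenitors lay at 1.63%. Thinning left out 1 stroma cell each in sarcomas 1 and 3, 20, 149, 11 and 13 sarcoma cells, and 120 muscle progenitors. The mean share was 2.14% in sarcoma cells and 1.69% in stroma, a difference of 0.456 percentage points ± 0.965 (SD, n = 4). It was higher in sarcoma cells in 3 of 4 libraries (exact two-sided permutation test by sign flips, p = 0.5). Without sarcoma 4 the difference was 0.807 percentage points, higher in 3 of 3 libraries (same permutation test, p = 0.25, the lowest that 3 pairs allow). With 4 pairs, that exact permutation test cannot go below about p = 0.13. It reached that limit at 4000 UMIs per cell, where the share was higher in sarcoma cells in 4 of 4 libraries. Unthinned, 4.32%, 17.3%, 14.9% and 44.8% of sarcoma cells held a Gli1 UMI, against 5.61% of muscle progenitors, at a median of 26355.5, 25622, 23328 and 32784 UMIs per sarcoma cell and of 8513 UMIs per progenitor.

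**Figure D3:**
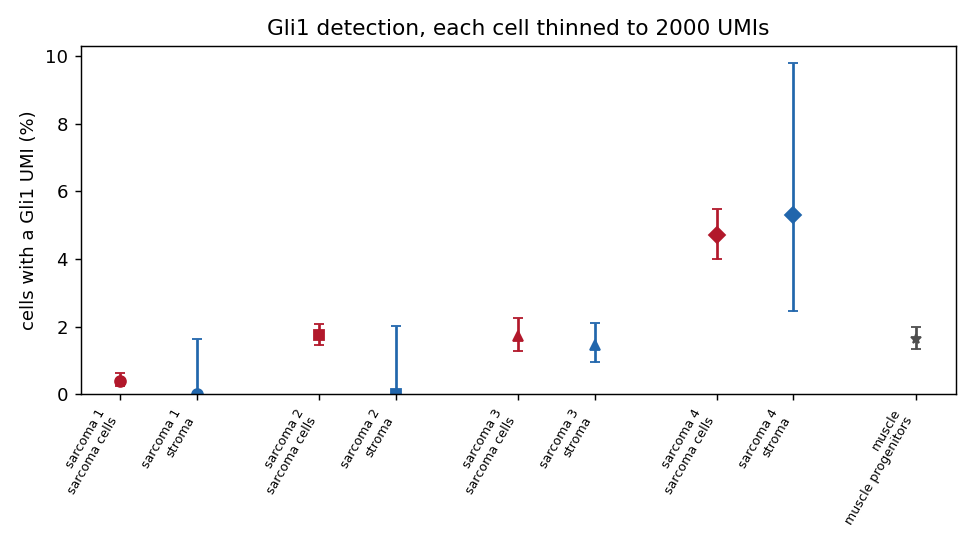
Percentage of cells with a Gli1 UMI after thinning every cell to 2000 UMIs, by library, in sarcoma cells (red), stroma (blue) and muscle progenitors (grey), with exact 95% binomial (Clopper-Pearson) intervals. Both classes of sarcoma 4 lie above those of sarcomas 1 to 3, at 4.70% and 5.29%, and the intervals of sarcoma cells and stroma overlap within each library.

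The level that free RNA gives could not be set from another cell type in the tumours. Cells with at least 4 UMIs of 5 haematopoietic markers numbered 67, 130, 259 and 19 in sarcomas 1 to 4 and held 2.62, 6.53, 7.22 and 22.4 CPM of Gli1, from 5, 29, 48 and 14 UMIs. In each sarcoma the counting interval of this level (0.852 to 6.12, 4.37 to 9.38, 5.33 to 9.58 and 12.3 to 37.6 CPM) spans the level of the sarcoma cells. Of them, 42, 78, 32 and 14 also met the sarcoma rule and 9, 37, 190 and 0 the stroma rule. At 2000 UMIs a Gli1 UMI was found in 0 of 66 cells, which allows up to 4.55%, in 0.769%, in 1.54% and in 0 of 19 cells, which allows up to 15.8%, at median depths of 24195 to 34689 UMIs. Cells with at least 4 UMIs of 5 endothelial markers in sarcomas 1 and 2 held a Gli1 UMI in 0.128% and 1.66% at 2000 UMIs (median depths of 30962 and 31895 UMIs), but sarcoma cells of those libraries themselves carried 281 and 322 CPM of these markers. Their Gli1 level was 1.35 CPM (1.11 to 1.64) in sarcoma 1 and 6.89 CPM (6.40 to 7.41) in sarcoma 2, below that of the sarcoma cells. Haematopoietic-marked cells without Gchfr UMIs held 4.37, 1.31, 7.56 and 30.6 CPM in sarcomas 1 to 4, from 2, 1, 34 and 5 UMIs. Sarcoma cells lay above the counting interval of these cells in sarcoma 2 (0.0331 to 7.29 CPM) and inside it in the other sarcomas. The endothelial-marked sets of sarcomas 1 and 2, 2352 and 3082 cells, held 0.626 and 0.706 CPM of Smarcb1. How many of them also met the sarcoma rule was not counted, so they are not shown to be another cell type. Among haematopoietic-marked cells, Gli1 in sarcoma cells was set apart in sarcoma 2 only, from those without Gchfr UMIs. The part of free RNA in the levels and shares was not tested.

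Gli2 (chromosome 1, 118834132 to 119053619, minus strand), the chief activator at the start of the response, was nearly missing from sarcoma cells, at 0.0607, 0.0152, 0.532 and 1.40 CPM in sarcomas 1 to 4 from 9, 3, 39 and 159 UMIs. Stroma held 2.62, 4.22, 10.3 and 2.40 CPM. Muscle progenitors held 10.2 CPM. All 4 sarcoma-cell values lay below all 4 stroma values and below muscle. The fold change against stroma was -4.49 ± 1.35 on the log2 scale (n = 4, edgeR adjusted p = 0.158), lower in 4 of 4 libraries, as were 14.6% of all genes tested. Without sarcoma 4 it was -5.62 and passed the threshold (edgeR adjusted p = 0.0481), in a fit with 994 calls (6.18% of genes), 233 higher and 761 lower. DESeq2 on all 4 libraries gave -4.71 (adjusted p = 0.000194). Against muscle progenitors the change was -4.19 ± 1.93 (edgeR adjusted p = 0.455), and 3 of the 7 genes, Gli2, Gli3 and Hhip, lay under muscle in all 4 sarcomas, where 30.0% of all genes did, and 0 lay above, where 22.0% did. In stroma 2 of the 7, Gli3 and Hhip, lay under muscle in all 4 sarcomas and 0 above, where 29.8% and 20.3% of all genes did. Stroma differed from muscle progenitors by -0.999 ± 0.87 on the log2 scale (edgeR adjusted p = 0.706), and by -0.75 without sarcoma 4.

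Thinned to 2000 UMIs, 0.0387%, 0.0274%, 0.138% and 0.389% of sarcoma cells in sarcomas 1 to 4 held a Gli2 UMI. Stroma of sarcoma 3, the library with most stroma cells, reached 2.73%. Muscle progenitors lay at 1.98%, so in the well-sampled classes the order of shares followed the order of CPM. The shares of sarcomas 1 and 2 rest on too few cells with Gli2 for their order to be read.

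Gli3 (chromosome 13, 15463235 to 15730026, plus strand), which acts mainly as a repressor without ligand, was at 25.1, 36.0, 30.9 and 10.4 CPM in sarcoma cells. Stroma held 26.5, 19.9, 27.6 and 12.0 CPM. Muscle progenitors held 36.1 CPM. Sarcoma 4 was the lowest in both tumour classes, the opposite of its place for Gli1. The fold change was 0.22 ± 0.20 against stroma (edgeR adjusted p = 0.498), -0.34 ± 0.67 against muscle progenitors (edgeR adjusted p = 0.844) and -0.69 ± 0.50 for stroma against muscle progenitors (edgeR adjusted p = 0.671). Without sarcoma 4 the differences involving stroma were 0.32 for sarcoma cells over stroma and -0.49 for stroma over muscle progenitors.

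The 250 bases before the RefSeq start are given for Gli2, the member lowest in sarcoma cells relative to stroma, and for Ptch1, the receptor highest in the same sarcoma as Gli1. They are shown 5′ to 3′ on the gene's strand (RefSeq, GRCm38.p6), in lower case with CG dinucleotides in capitals. The windows are chr1:119053620-119053869 (minus) for Gli2 and chr13:63565736-63565985 (minus) for Ptch1, whose RefSeq start lies inside the annotated gene.
Gli2: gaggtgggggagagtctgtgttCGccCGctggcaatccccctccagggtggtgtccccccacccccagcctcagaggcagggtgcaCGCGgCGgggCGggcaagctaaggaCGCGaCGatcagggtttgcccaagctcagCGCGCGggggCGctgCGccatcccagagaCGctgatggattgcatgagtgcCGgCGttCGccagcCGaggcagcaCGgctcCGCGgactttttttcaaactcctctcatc
Ptch1: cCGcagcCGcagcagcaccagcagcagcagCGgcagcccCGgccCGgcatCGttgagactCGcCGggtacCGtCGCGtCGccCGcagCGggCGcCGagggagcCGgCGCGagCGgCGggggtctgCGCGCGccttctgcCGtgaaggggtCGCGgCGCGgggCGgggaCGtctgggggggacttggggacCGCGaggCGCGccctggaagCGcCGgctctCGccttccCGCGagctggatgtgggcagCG
They hold 22 and 41 CG dinucleotides, against a median of 6 in the 32851 promoters of the same length. Promoters were at hand for 6 of the 7 genes. The Gli binding motif GACCACCCA, searched on both strands, was in 0 of these 6 windows and in 0.225% of all promoters, which describes these windows only.

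Ptch1 (chromosome 13, 63508328 to 63573598, minus strand), the receptor and a target gene, was at 4.25, 8.22, 11.1 and 34.9 CPM in sarcoma cells. Stroma held 5.41, 7.44, 15.0 and 33.2 CPM. Muscle progenitors held 7.96 CPM. The order of the 4 sarcomas was the same in both tumour classes, with sarcoma 4 highest by a wide margin. Sarcoma cells differed from stroma by -0.10 ± 0.17 on the log2 scale (n = 4, edgeR adjusted p = 0.729), with an interval of -0.54 to 0.34, and by -0.21 without sarcoma 4. Against muscle progenitors the fold changes were 1.06 ± 1.31 for sarcoma cells (edgeR adjusted p = 0.744), or 0.0742 without sarcoma 4, and 0.97 ± 1.09 for stroma (edgeR adjusted p = 0.768), or 0.29 without sarcoma 4. At 2000 UMIs per cell, Ptch1 was found in 0.756%, 1.70%, 1.89% and 7.18% of sarcoma cells and in 1.83% of muscle progenitors.

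Smo (chromosome 6, 29735503 to 29761365, plus strand), the membrane protein that passes the signal on, was at 29.3, 34.8, 51.2 and 82.6 CPM in sarcoma cells. Stroma held 34.9, 35.2, 47.8 and 75.2 CPM. Muscle progenitors held 49.4 CPM. The sarcomas again ran in the same order in both classes, and muscle lay in the middle of them. The fold change against stroma was 0.04 ± 0.10 (n = 4, edgeR adjusted p = 0.840), with an interval of -0.22 to 0.30, and its sign turned under library-size scaling and without sarcoma 4 (-0.0377). Against muscle progenitors the fold changes were 0.17 ± 0.65 for sarcoma cells (edgeR adjusted p = 0.928) and 0.0085 ± 0.49 for stroma (edgeR adjusted p = 0.997), or -0.27 without sarcoma 4.

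Sufu (chromosome 19, 46396896 to 46488804, plus strand), which holds Gli proteins in check in the cytoplasm, varied less between the sarcomas, relative to its mean, than the other 6, with 9.46, 13.0, 13.2 and 8.43 CPM in sarcoma cells. Stroma held 11.0, 13.5, 15.2 and 7.49 CPM. Muscle progenitors held 10.5 CPM. The fold change against stroma was -0.04 ± 0.15 (n = 4, edgeR adjusted p = 0.895), with an interval of -0.41 to 0.34, and against muscle progenitors it was 0.22 ± 0.40 (edgeR adjusted p = 0.832), with 0.22 ± 0.49 for stroma (edgeR adjusted p = 0.891). Without sarcoma 4 sarcoma cells differed from stroma by -0.14 and stroma from muscle progenitors by 0.39.

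Hhip (chromosome 8, 79965851 to 80058006, minus strand), a membrane protein that binds and traps the ligands and a target gene, was at 0.918, 0.0304, 0.409 and 0.759 CPM in sarcoma cells, from 136, 6, 30 and 86 UMIs. Stroma held 0, 0, 4 and 3 UMIs, and a count of 0 there allows up to 0.524 and 0.603 CPM. Muscle progenitors held 4.00 CPM, above every tumour class. The fitted difference of sarcoma cells from stroma, 2.09 ± 0.77 (edgeR adjusted p = 0.179), rests on these few stroma UMIs, as does that of stroma from muscle progenitors, -4.83 ± 1.44 (edgeR adjusted p = 0.473). Without sarcoma 4 they were 2.76 and -5.87, neither called. Sarcoma cells differed from muscle progenitors by -2.73 ± 1.47 on the log2 scale (edgeR adjusted p = 0.514). At 2000 UMIs, a Hhip UMI was found in 0.213%, 0.0137%, 0.172% and 0.120% of sarcoma cells and in 0.634% of muscle progenitors.

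The rest of the pathway was read from 45 genes in lists of ligands, ligand release, co-receptors, targets, signal relay and cilium. edgeR called 0 of the 44 tested for sarcoma cells against stroma, 0 of 45 for sarcoma cells against muscle progenitors and 0 of 38 for stroma against muscle progenitors, with 11, 5 and 5 at an unadjusted p under 0.05, where 26.3%, 12.6% and 9.14% of all genes were. DESeq2 called 6 of 45, 7 of 45 and 2 of 44, beside 16.5%, 10.4% and 4.81% of all genes, and limma-voom called 1, 0 and 0, beside 4.06%, 0.266% and 0.00%. The median log2 fold change of the 44 was 0.0289, beside 0.09 over all genes tested. Against muscle progenitors it was -0.18 for the 45 in sarcoma cells, beside 0.20 over all genes, and 20 of them lay below muscle in all 4 sarcomas and 6 above, where 30.0% and 22.0% of all genes did. Scaling by library size only moved the median of all genes for sarcoma cells against muscle progenitors to 0.05.

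Of the ligands, Dhh (desert hedgehog) was at 0.209, 1.90, 0.300 and 40.5 CPM in the sarcoma cells of sarcomas 1 to 4. Stroma held 0.175, 14.5, 0.165 and 22.8 CPM, and muscle progenitors 0.132 CPM from 7 UMIs. Sarcoma 4 alone was high in sarcoma cells. A Dhh UMI was found in 5.86% of its sarcoma cells at 2000 UMIs, against 0.0194% to 0.411% in the others and 0.0167% of muscle progenitors. In the stroma of sarcoma 2, the 72 Dhh UMIs came from 11 of 180 cells, and stroma cells of that library without Gchfr UMIs held 0 Dhh UMIs. Such cells held 39 Dhh UMIs in sarcoma 4, or 17.3 CPM, and 1 and 5 Dhh UMIs in sarcomas 1 and 3. Ihh stayed at or below 0.204 CPM and Shh at or below 0.388 CPM in every class.

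Within the sarcoma cells of sarcoma 4, thinned to 2000 UMIs, Gli1 was found in 15 of 196 cells with a Dhh UMI, 7.65% (95% interval 4.35 to 12.3), and in 142 of 3147 cells without, 4.51% (3.81 to 5.30). Ptch1 was found in 7.14% of cells with Dhh and in 7.18% of cells without. These cells share 1 library, and the intervals overlap.

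**Figure D4:**
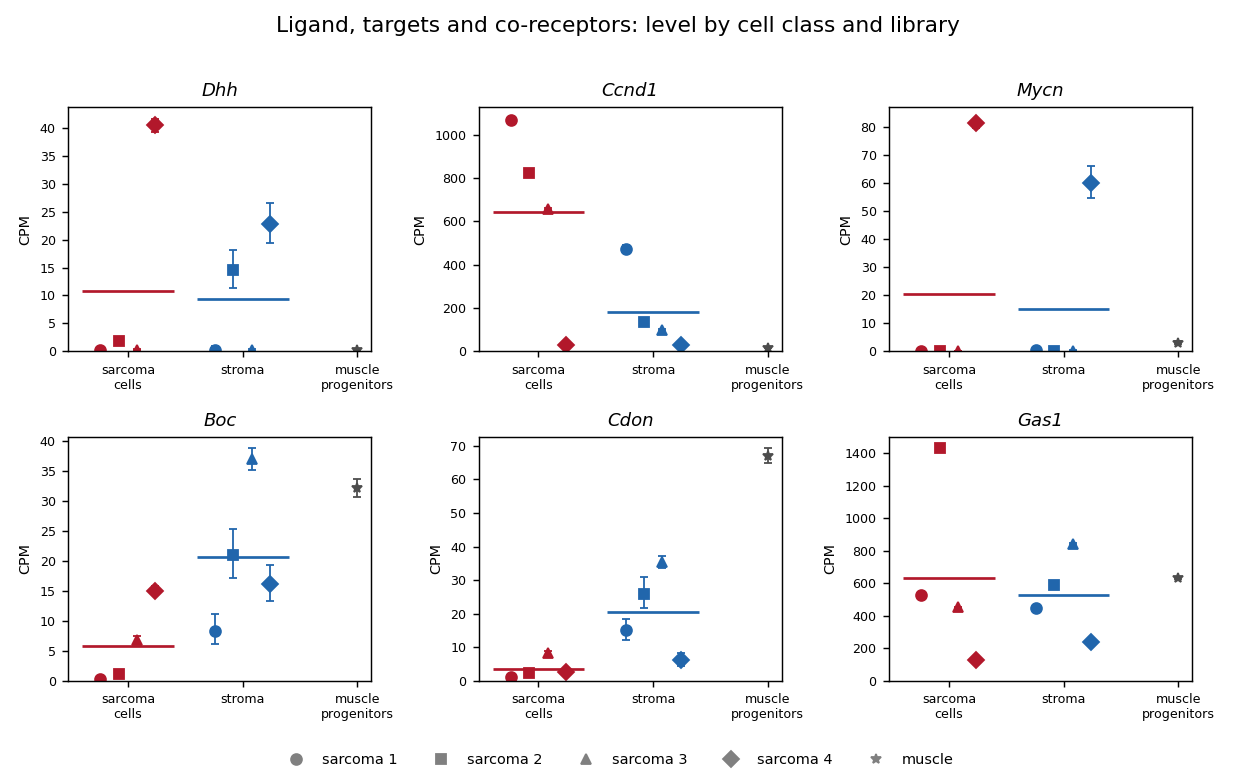
Level in CPM (linear axes from 0, scaled separately) of the ligand gene Dhh, the target genes Ccnd1 and Mycn and the co-receptor genes Boc, Cdon and Gas1, with classes, symbols and bars as in the plot of the 7 genes. Dhh and Mycn are highest in sarcoma 4, at 40.5 and 81.4 CPM in sarcoma cells, and Boc and Cdon are lower in sarcoma cells than in stroma in all 4 libraries.

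The co-receptors, which help ligand bind Ptch1, held the lowest list median for sarcoma cells against stroma, -1.32 over 4 genes. Cdon was at 1.11, 2.32, 8.30 and 2.75 CPM in sarcoma cells. Stroma held 15.0, 25.9, 35.3 and 6.22 CPM, and muscle progenitors 67.1 CPM. Every sarcoma-cell value of Cdon lay under the stroma value of its library, and all 8 lay under muscle. Its fold change against stroma was -2.60 ± 0.51 (edgeR adjusted p = 0.130), and -3.08 without sarcoma 4, where it passed (edgeR adjusted p = 0.0375). With all 4 sarcomas it also passed by DESeq2 (adjusted p = 1.64e-05), by limma-voom (adjusted p = 0.0394), thinned (edgeR adjusted p = 0.0453) and against stroma without Gchfr UMIs (edgeR adjusted p = 0.0468). Over its alternatives the adjusted p reached 0.399, without sarcoma 2.

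Boc, a close relative of Cdon, was at 0.236, 1.21, 6.82 and 15.0 CPM in sarcoma cells. Stroma held 8.38, 20.9, 36.9 and 16.1 CPM, and muscle progenitors 32.2 CPM. The gap was narrow in sarcoma 4 and wide in sarcomas 1 to 3. Its fold change against stroma was -2.94 ± 0.97 (edgeR adjusted p = 0.164), and without sarcoma 4 it was -3.81 and passed (edgeR adjusted p = 0.0494). With all sarcomas it was also called by DESeq2.

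Gas1, a membrane-anchored co-receptor, was at 529, 1432, 451 and 126 CPM in sarcoma cells. Stroma held 447, 587, 842 and 236 CPM and muscle progenitors 632 CPM, so the classes overlap. Lrp2, a large endocytic receptor, was at or below 0.607 CPM in every class. Without sarcoma 4, the genes called by edgeR in the 43 pathway genes tested were Boc and Cdon, both lower in sarcoma cells, next to 994 of 16079 genes in all (6.18%).

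Among target genes, Ccnd1, a cyclin of cell cycle entry that many other signals control as well, was at 1069, 824, 656 and 29.9 CPM in sarcoma cells. Stroma held 471, 134, 98.2 and 26.6 CPM and muscle progenitors 16.9 CPM. Its fold change against stroma was 1.74 ± 0.49 (edgeR adjusted p = 0.151), higher in 4 of 4 libraries, as were 16.8% of all genes. It passed by DESeq2 (adjusted p = 0.00936) and thinned (edgeR adjusted p = 0.0360), and was 2.21 without sarcoma 4 (edgeR adjusted p = 0.0555). Against stroma without Gchfr UMIs it was 3.78 (edgeR adjusted p = 0.127), and 4.67 with sarcoma 4 left out as well, where it passed (edgeR adjusted p = 0.0226). Sarcoma 4, highest for Gli1, was lowest for Ccnd1. Its relative Ccnd2 was highest in sarcoma 4, with 125, 52.9, 253 and 968 CPM in sarcoma cells, 166, 130, 235 and 1317 CPM in stroma and 127 CPM in muscle progenitors. Mycn, a growth-promoting transcription factor, was at 0, 0.0202, 0.0545 and 81.4 CPM in sarcoma cells and at 0.349, 0, 0.142 and 60.2 CPM in stroma, against 2.98 CPM in muscle progenitors. Bcl2, a survival factor, was at 31.8, 19.9, 13.7 and 8.14 CPM in sarcoma cells, at 18.9, 11.5, 14.3 and 14.6 CPM in stroma and at 24.7 CPM in muscle progenitors.

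Ligand release was covered by 6 genes, of which 1 was higher and 3 lower in sarcoma cells than in stroma in all 4 libraries, where 16.8% and 14.6% of all genes were. Hhat, which attaches a fatty acid to the ligand, lay at 1.67 to 14.1 CPM in sarcoma cells, 7.33 to 18.7 CPM in stroma and 7.73 CPM in muscle progenitors. Disp1, which releases the ligand, lay at 4.68 to 11.6 CPM in sarcoma cells and 4.38 to 8.05 CPM in stroma, all below the 21.7 CPM of muscle progenitors. Scube2, which carries the ligand away from the cell, was at 0.0202 to 1.64 CPM in sarcoma cells, 0.424 to 15.2 CPM in stroma and 2.87 CPM in muscle progenitors. The fold change of Scube2 against stroma was -5.60 ± 1.14 on the log2 scale (edgeR adjusted p = 0.130), lower in all 4 libraries. DESeq2 called it, as it did 16.5% of all genes. Scube3, of the same family, was at or below 1.41 CPM in every class.

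Of the 14 relay genes, 3 were higher and 2 lower in sarcoma cells than in stroma in all 4 libraries, near the 16.8% and 14.6% of all genes, with a list median of 0.03 beside 0.09 over all genes. The kinase genes Csnk1a1 and Gsk3b, which mark Gli proteins for processing, lay at 350 to 484 and 147 to 241 CPM in sarcoma cells, 330 to 420 and 134 to 188 CPM in stroma, and 258 and 178 CPM in muscle progenitors. Spop and Cul3, parts of a ubiquitin ligase for Gli proteins, lay at 115 to 198 and 73.8 to 80.7 CPM in sarcoma cells, 122 to 152 and 63.1 to 77.0 CPM in stroma, and 124 and 62.3 CPM in muscle progenitors.

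The 10 cilium genes had a median of 0.30 for sarcoma cells against stroma, beside 0.09 over all genes, with 4 higher and 1 lower in all 4 libraries (16.8% and 14.6% of all genes), and 6 lay below muscle in the sarcoma cells of all 4 sarcomas (30.0% of all genes). Ift20, of the transport system inside cilia, was at 121 to 156 CPM in sarcoma cells, 155 to 233 CPM in stroma and 160 CPM in muscle progenitors. Kif3a, a subunit of the ciliary motor, was at 34.8 to 42.0 CPM in sarcoma cells, 24.9 to 37.6 CPM in stroma and 37.0 CPM in muscle progenitors. Arl13b and Dync2h1 lay at 22.6 to 40.3 and 15.1 to 27.7 CPM in sarcoma cells, 23.2 to 35.4 and 9.95 to 19.6 CPM in stroma, and 52.9 and 23.0 CPM in muscle progenitors.

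The genes whose level most resembled those of 3 members were sought over the 9 class sums, among 8487 genes with a mean of at least 10 CPM, by Pearson's r of log2(CPM + 1). For Gli1 they were Klhl12, Tmem198b and Flcn, with r of 0.967 to 0.968. For Ptch1 they were Larp1b, Pcid2 and Wdr35, with r of 0.976 to 0.983. For Hhip they were Ift81, Diablo and Mcee, with r of 0.913 to 0.925. The 9 sums come from 5 libraries and share their depth and processing, so these values describe likeness only.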

How the data were processed

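Single-cell RNA was measured with the 10x Genomics 3′ v2 kit after sorting, per the labels' protocols. The deposited values are raw UMI counts per gene and barcode, which per the file headers the authors obtained from Cell Ranger 6.0.1, with mm10 named in the submitters' processing notes. How cells were called, and on which annotation release, is not given in the sources used here. A 3′ count reads only the tagged end of a transcript and says nothing about the floxed part of Smarcb1.

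A cell was kept if it had 500 or more detected genes and no more than 10% of its UMIs from mitochondrial genes (scipy 1.17.1, numpy 2.4.6 and pandas 2.3.3 in Python 3.11.15). Doublets were not removed, and dropping the highest 5% of UMI totals was an alternative. Counts were summed per library and class and tested across all genes with edgeR 4.0.16 (R 4.3.3; quasi-likelihood test, TMM, filterByExpr, Benjamini-Hochberg at 0.05). Sarcoma cells against stroma had the library as a block, since both sums come from 1 tumour. DESeq2 1.42.0, limma-voom (limma 3.58.1), other scaling, filters, class rules and depths, and leaving out each sarcoma were alternatives. Shares of cells were compared after thinning to 2000 UMIs, with exact binomial intervals at 95%, and counts carry exact Poisson intervals. The limit for a count of 0 is 3 counts. The fits were tested on simulated counts, and those against muscle did not recover the changes put in.

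Named were the 7 members and, from each list, the 4 genes of highest mean CPM over the 9 class sums, with any that passed the test. Other list genes enter counts and medians only. 1 further gene was left out of the lists, and it and 1 marked set of cells are not reported here. Members and lists were chosen with earlier results of these data known. Positions come from GENCODE for mm10, matched by gene identifier. Figures were drawn with matplotlib 3.10.9.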

Additional observations from a re-analysis of the deposited data

Results flagged for a closer look

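Over 30 sets of 4 sarcoma values, those of the 7 members and 8 further pathway genes in sarcoma cells and in stroma, 5 had 1 sarcoma far from the other 3, where chance flags about 1 in 20 independent sets. The 5 cannot be read against that rate, since 91 of the 170 stroma cells of sarcoma 4 are also counted among its sarcoma cells and Foxf1 was added after its values were seen. None of the 5 was a member. Dhh in sarcoma cells was at 40.5 CPM in sarcoma 4, with the nearest other sarcoma at 1.90 CPM. Mycn was at 81.4 CPM in the sarcoma cells of sarcoma 4 and at 60.2 CPM in its stroma, with the nearest at 0.0545 and 0.349 CPM. Ccnd2 in stroma was at 1317 CPM in sarcoma 4, with the nearest at 235 CPM. Foxf1, a forkhead factor and Hedgehog target in mesenchyme, was at 52.4 CPM in the sarcoma cells of sarcoma 1 with the nearest at 1.06 CPM, while Gli1 and Ptch1 were lowest in that sarcoma, at 1.77 and 4.25 CPM. The values of sarcoma 4 in stroma come from cells that were low in Smarcb1 and in progenitor markers.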

How the results depend on the processing

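Of 318 values of the 7 members under alternatives, 295 kept their direction and their side of the threshold, 20 changed sign, all uncalled, and 3 passed, all of Gli2. Calls for sarcoma cells against stroma, 39 as reported, were 118 with library-size scaling, 2737 with DESeq2, 668 with limma-voom, 212 with stricter class cuts, 114 with overlapping and other-marked cells removed, 490 thinned, 151 without the highest UMI totals, 86 with Gchfr cells whatever their Smarcb1 count, 279 with stroma without Gchfr UMIs (1635 without sarcoma 4 as well), and 0 without the replicate block. They were 0 to 994 leaving out 1 sarcoma, 0 without sarcoma 1 or 2, 8 without sarcoma 3 and 994 without sarcoma 4. Without the block Gli1 was 0.23 (edgeR adjusted p = 0.966) on the log2 scale. Sarcoma cells against muscle progenitors gave 1796 calls with DESeq2, 47 with limma-voom and 1 thinned, and stroma against muscle progenitors 700 with DESeq2 and 0 to 109 leaving out 1 sarcoma, the 109 without sarcoma 4.

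Leaving out 1 sarcoma, Gli1 ranged from -0.15 to 1.00 for sarcoma cells against muscle progenitors and from -0.80 to 0.66 for stroma against them, where limma-voom gave -0.15 and thinning -0.12. For sarcoma cells against stroma the ranges were -0.0151 to 0.32 for Gli3, -0.21 to 0.0523 for Ptch1, -0.0377 to 0.0899 for Smo and -0.14 to 0.0572 for Sufu. Smo was also -0.00655 with library-size scaling, -0.0242 with overlapping cells removed, -0.0798 thinned, and -0.0569 and -0.15 with stroma without Gchfr UMIs, with and without sarcoma 4, and Sufu was 0.12 thinned. Against muscle progenitors, Smo ranged from -0.26 to 0.33 in sarcoma cells and from -0.27 to 0.13 in stroma, where it was also -0.0335 with library-size scaling, -0.0324 with limma-voom, -0.0262 with no filter and -0.0486 with stricter cuts. The Gli1 share difference was -0.113 percentage points at 1000 UMIs per cell and 0.919 at 4000, and 0.0274 to 0.807 leaving out 1 sarcoma. The cause of these changes was not tested. Stroma of sarcomas 1, 2 and 4 rests on 170 to 224 cells, which limits its low genes, and 1 muscle library limits every comparison with muscle.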

Other observations

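Some genes outside the naming rule, picked after their values were seen, lay below muscle progenitors in both tumour classes of all 4 sarcomas. Of all genes, 30.0% did so in sarcoma cells and 29.8% in stroma. Against muscle progenitors, edgeR called neither of the genes given here and DESeq2 called both. Bmp4, a signalling factor and Hedgehog target, was at 0.132 to 3.39 CPM in sarcoma cells and 0.402 to 6.92 CPM in stroma, against 82.5 CPM in muscle progenitors. Tctn1, a protein of the ciliary base, was at 3.70 to 8.90 CPM in sarcoma cells and 4.19 to 8.92 CPM in stroma, against 32.3 CPM in muscle progenitors.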
